A study of Homo sapiens with 4 samples.

Results

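The alpha- and beta-globin loci of K562, a human erythroleukaemia line, were examined in 4 peak lists from ChIP-seq of CTCF, which sequences the DNA that is pulled down with the protein. Peaks were taken by position: a peak belonged to the beta-globin locus when its summit lay at 5.00 to 5.60 Mb of chromosome 11, and to the alpha-globin locus when it lay at 0.05 to 0.60 Mb of chromosome 16 (GRCh37). This rule gave 46 of 33868 peaks. Intervals of different lists that shared at least 1 bp were merged into regions, which gave 24 of 13962 regions, 4 at the beta-globin locus and 20 at the alpha-globin locus. Both groups were treated, one with aclarubicin and the other with daunorubicin, each at 10 µM over 4 hours and in 2 biological replicates. The labels name no other alteration of the line. Since no library without drug was analysed here, the values set the drugs against each other.

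Haemoglobin is built from an alpha-type and a beta-type chain. The beta-globin locus holds, in chromosome order, HBB and HBD (adult beta and delta chains), HBG1 and HBG2 (fetal gamma chains) and HBE1 (embryonic epsilon chain). It is driven by a locus control region beyond HBE1, a row of DNase hypersensitive sites whose outermost one is HS5. HS5 and the site 3' HS1, which lies on the other side beyond HBB, are textbook CTCF sites that bracket the genes. The alpha-globin locus holds HBZ (embryonic zeta chain), HBA2 and HBA1 (alpha chains), with HBM and HBQ1 in the same row, near the end of the short arm of chromosome 16. CTCF is a zinc-finger protein that binds DNA at insulators and loop anchors, and K562 is known for making embryonic and fetal globins. Aclarubicin and daunorubicin are both anthracyclines, DNA intercalators with a shared ring system, and aclarubicin carries a longer sugar chain. The 8 genes HBB, HBD, HBG1, HBG2, HBE1, HBA1, HBA2 and HBZ were all found in the RefSeq gene table, which is of GRCh38. It was used for names and order alone, so the peaks are given by their GRCh37 position, and which gene each of them lies in was not analysed here.

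The lists differed in length. They held 10633 and 10711 peaks under aclarubicin (replicates 1 and 2) and 5886 and 6638 under daunorubicin. Each peak's deposited fold over background and −log10 p were solved for the number of fragments over its summit and for the background in fragments, under the formula of a common peak caller. The solution was a whole number, within 0.02, for 100% of the peaks of every list. The lowest background of each list gave relative depths of 1 and 1.04 for the aclarubicin libraries, and of 0.997 and 0.814 for the daunorubicin libraries. With 2 libraries against 2, the smallest two-sided p of an exact permutation test is 0.33, so that test cannot reach 0.05 here, and each difference is read beside the replicate SD. Counting intervals are exact Poisson or binomial intervals at 95% and cover counting error only.

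No CTCF peak was called at either landmark that brackets the beta-globin genes. Within 5 kb of 3' HS1 (near 5.226 Mb) there were 0 peaks in each of the 4 lists, and the same held at HS5 (near 5.313 Mb). Between them, over the 87 kb that hold HBB, HBD, HBG1, HBG2 and HBE1, each list also had 0 peaks. The nearest summit to 3' HS1 lay 272 kb away in both aclarubicin lists and 80.5 kb away in both daunorubicin lists. The nearest to HS5 lay 185 kb away in both aclarubicin lists, and 168 and 89.1 kb away in the daunorubicin lists. The beta-globin genes thus lay in a stretch without peaks under both drugs.

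That stretch was longer than the median space between neighbouring peaks in every list, and longest in the aclarubicin lists. It measured 839 kb in both of them, longer than 92.8% and 93.0% of the spaces between neighbouring peaks of those lists, whose median was 75 and 74.4 kb. In the daunorubicin lists the same stretch measured 352 and 256 kb, longer than 72.0% and 65.9% of the spaces, with medians of 134 and 133 kb. A fixed position falls in a long space more often than in a short one. These percentages, which count each space once, therefore cannot show that the stretch was unusual. A site that was not called has no value in these files. The fewest fragments over the summit of any called peak were 9 and 10 under aclarubicin and 10 and 9 under daunorubicin. An absent call at the landmarks therefore says that the signal there did not pass the authors' threshold, not that CTCF was absent.

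**Figure D1:**
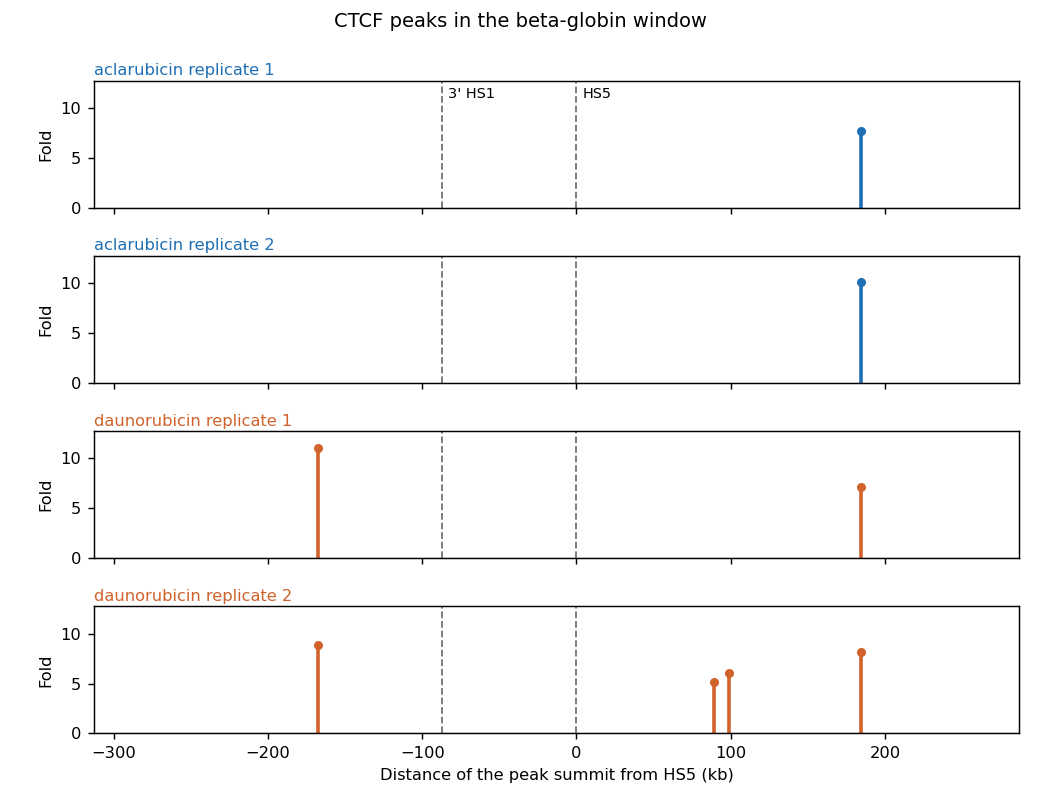
Each panel is 1 library. The x axis is the distance of each peak summit from HS5 in kb, the height is the deposited fold over background, and the dashed lines mark 3' HS1 and HS5. No peak stands at or between the dashed lines in any of the 4 libraries, and the peak 185 kb from HS5 is the one present in every panel.

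The beta-globin window held 1 peak in each aclarubicin list and 2 and 4 peaks in the daunorubicin lists. The mean was 1.00 ± 0 (SD, n = 2) under aclarubicin and 3.00 ± 1.41 (SD, n = 2) under daunorubicin. Leaving out daunorubicin replicate 2 brought the difference from 2 peaks to 1, and leaving out daunorubicin replicate 1 brought it to 3. With a −log10 q of at least 10 the window held 1 and 1 aclarubicin peaks and 2 and 2 daunorubicin peaks. The whole lists ran the other way, with 1.70 times as many peaks under aclarubicin. Per Mb, the window held 1.67 peaks in each aclarubicin list, against 3.51 and 3.53 over the whole lists, and 3.33 and 6.67 in the daunorubicin lists, against 1.94 and 2.19.

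One beta-globin region, chr11:5497131-5497867 (the 5498 kb region), was called in all 4 libraries. Its folds were 7.70 and 10.1 under aclarubicin and 7.15 and 8.13 under daunorubicin, at percentiles 51.6, 73.9, 48.3 and 54.6 of their own lists. Its peaks were 285 and 446 bp wide under aclarubicin and 293 and 688 bp wide under daunorubicin. The drugs overlapped in each of these measures. Fragments over the summit, scaled to the depth of aclarubicin replicate 1, numbered 20 and 32.6 in the aclarubicin libraries, and 21.1 and 31.9 in the daunorubicin libraries. The log2 difference, daunorubicin minus aclarubicin, was 0.02, with a pooled replicate SD of 0.46 (exact permutation p = 1.0), and it was -0.16 without scaling for depth. From the summed fragments the ratio was 0.981 with a 95% interval of 0.649 to 1.48. That interval covers counting error and not the spread between replicates. It is therefore no limit of detection, and differences beyond it could be missed too. Among the 5886 strongest peaks of each list by −log10 p, the peak of aclarubicin replicate 1 was no longer included, which left 4 globin regions called in every library. The sign of the log2 difference changed when aclarubicin replicate 1 (-0.33) or daunorubicin replicate 2 (-0.28) was left out.

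Another beta-globin region was called under daunorubicin alone. It lay at chr11:5145366-5145667 (the 5145 kb region), 80.5 kb from 3' HS1 on the side away from the genes. Daunorubicin replicate 1 had a peak of 302 bp there with a fold of 11.1 (percentile 90.1) and 30 fragments (95% interval 20.2 to 42.8) over a background of 1.80. Daunorubicin replicate 2 had one of 246 bp with a fold of 8.83 (percentile 63.4) and 21 fragments (13.0 to 32.1) over a background of 1.49. By −log10 p these peaks ranked lower, at percentiles 63.0 and 36.4. The summits of the 2 libraries lay at 5145473 and 5145483. Neither aclarubicin list held a peak at this place, or anywhere from 4658525 to the 5498 kb region. Regions called in both daunorubicin libraries and in neither aclarubicin library made up 3.17% of all merged regions, and this was 1 of the 24 globin regions.

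The remaining 2 beta-globin regions were called in daunorubicin replicate 2 alone, between HS5 and the 5498 kb region. The first, chr11:5401819-5402167, was 349 bp wide with a fold of 5.14 (percentile 10.4) and 16 fragments. The other, chr11:5411522-5411765, was 244 bp wide with a fold of 6.07 (percentile 22.6) and 19 fragments. They were among the weaker peaks of their list, and daunorubicin replicate 1 had none there. The background under all beta-globin peaks was low, between 1.49 and 2.47 fragments, where the aclarubicin lists had medians of 5.58 and 5.98 and the daunorubicin lists 4.23 and 3.52.

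The alpha-globin window was dense in CTCF peaks under both drugs. It held 10 and 15 peaks in the aclarubicin lists and 8 and 5 in the daunorubicin lists, a mean of 12.5 ± 3.54 against 6.5 ± 2.12 (SD, n = 2 each). Per Mb this was 18.2 and 27.3 peaks under aclarubicin and 14.5 and 9.09 under daunorubicin, above the density of the whole list in each library. The aclarubicin mean was 1.92 times the daunorubicin mean, where the whole lists gave 1.70 times. As a share of their lists, the peaks of both windows together made up 0.103% and 0.149% under aclarubicin. Under daunorubicin they made up 0.170% and 0.136%, so the drugs overlapped. The higher number under aclarubicin held with stricter thresholds but not in lists of equal length. With a −log10 q of at least 10 the window held 8 and 11 aclarubicin peaks and 6 and 4 daunorubicin peaks. With a fold of at least 5 it held 5 and 7 against 4 and 4. Among the 5886 strongest peaks of each list by −log10 p, the window held 5 and 5 aclarubicin peaks and 8 and 4 daunorubicin peaks. Leaving out aclarubicin replicate 2 brought the difference from 6 to 3.5 peaks. The whole window lies within 600 kb of the start of chromosome 16, and the background under its peaks was high, with medians of 12.1 and 11.9 fragments under aclarubicin and 7.81 and 8.08 under daunorubicin. Only 12.1%, 15.4%, 12.9% and 6.36% of the peaks of the 4 lists (in the same order) had a higher background than these medians. The part of the background in the number of calls was not tested.

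**Figure D2:**
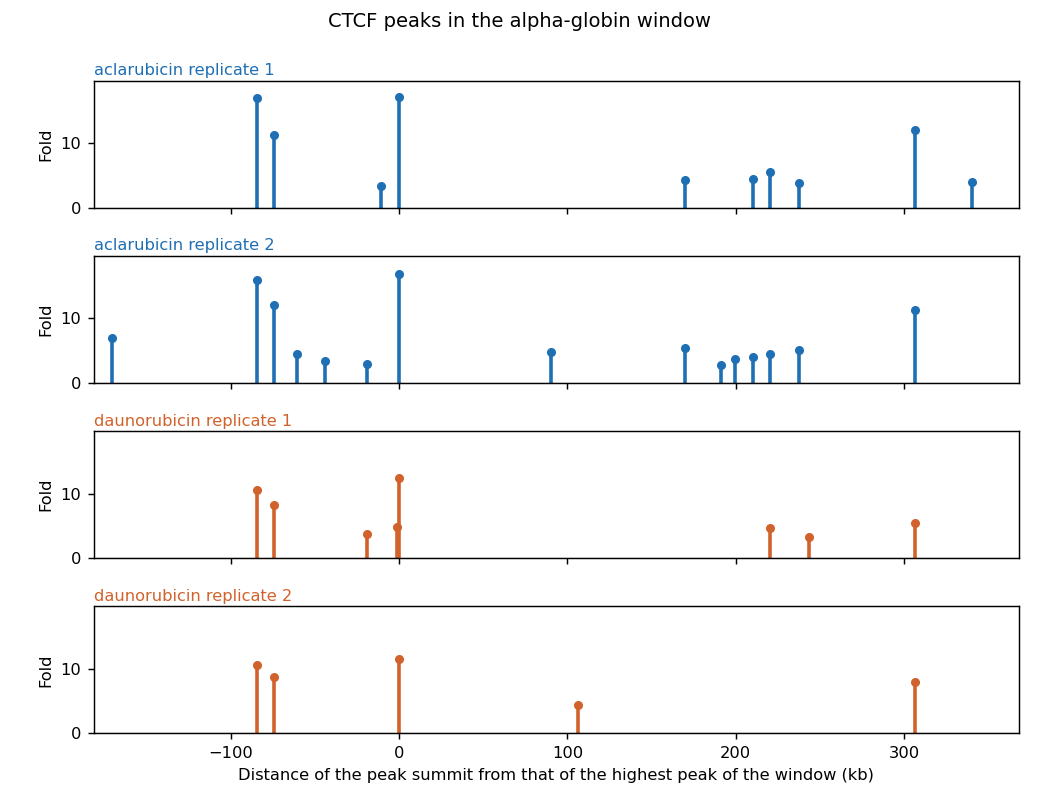
Each panel is 1 library. The x axis is the distance of each peak summit from the summit of the highest peak of the window, in aclarubicin replicate 1, in kb, and the height is the deposited fold over background. Peaks 84.5 and 74.4 kb to the left, at 0 and 306 kb to the right stand in every panel, and the low peaks differ between libraries.

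In 4 alpha-globin regions a peak was called in every library, and each had fewer fragments under daunorubicin. They lay at chr16:146772-147388, chr16:156917-157463, chr16:231234-231877 and chr16:537700-538126, called the 147, 157, 232 and 538 kb regions here. The 147 and 157 kb regions are 10.1 kb apart, the 232 kb region lies 84.5 kb from the former, and the 538 kb region lies 306 kb beyond the 232 kb region.

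The 232 kb region had the highest fold of the alpha-globin window in all 4 libraries. Its folds were 17.1 and 16.8 under aclarubicin (percentiles 98.0 and 98.3) and 12.5 and 11.6 under daunorubicin (95.3 and 87.3). Its summit carried 415 and 409 fragments under aclarubicin and 150 and 116 under daunorubicin. Scaled for depth these were 415 and 393 against 150 and 143. The groups did not overlap, and the log2 difference was -1.46 with a pooled replicate SD of 0.06 (exact permutation p = 0.33).

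The 147 kb region was nearly as strong under aclarubicin, with folds of 17.0 and 16 (percentiles 97.9 and 97.6), and had folds of 10.6 and 10.5 under daunorubicin (87.6 and 80.1). Its fragments were 411 and 392 under aclarubicin and 109 and 98 under daunorubicin, or 411 and 376 against 109 and 120 after scaling. The daunorubicin libraries lay below both aclarubicin libraries, at 0.292 times their level (log2 difference -1.78, pooled SD 0.09, exact permutation p = 0.33). This was the lowest ratio of the 5 globin regions called in every library.

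The 157 kb region was weaker. Aclarubicin gave folds of 11.2 and 12.0 there (percentiles 80.2 and 86.3), daunorubicin 8.21 and 8.70 (64.1 and 61.9). It had 188 and 229 scaled fragments under aclarubicin and 76.2 and 95.8 under daunorubicin. Here too the groups were apart, with a ratio of 0.412 (log2 difference -1.28, pooled SD 0.22, exact permutation p = 0.33).

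At the 538 kb region the daunorubicin replicates differed from each other. Folds were 12.0 and 11.2 under aclarubicin (percentiles 84.5 and 81.8), and 5.51 and 7.98 under daunorubicin (21.2 and 51.9). Scaled fragments were 161 and 144 under aclarubicin and 40.1 and 65.1 under daunorubicin, with no overlap between the drugs. The log2 difference was -1.57 with a pooled SD of 0.36 (exact permutation p = 0.33).

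**Figure D3:**
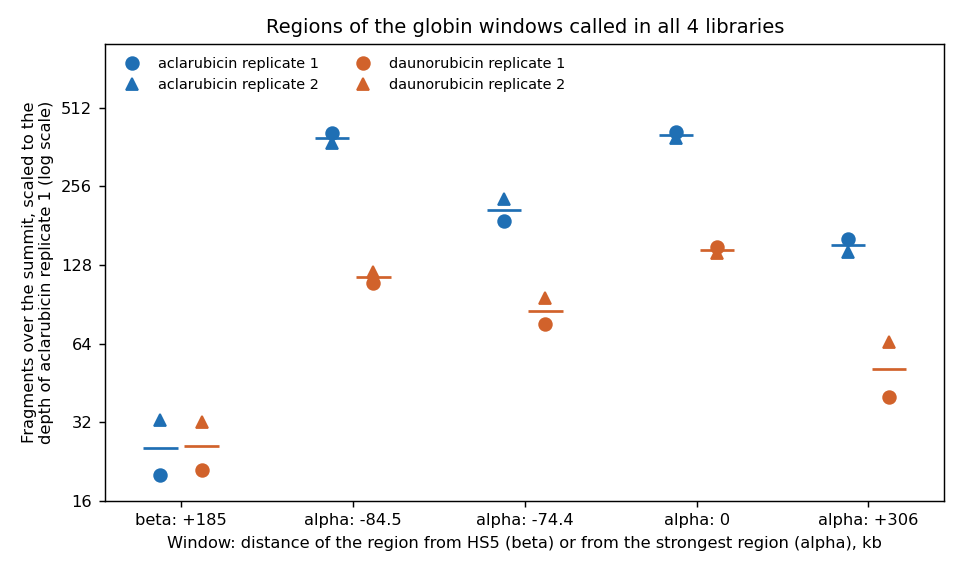
Fragments over the summit (y axis, log scale, scaled to the depth of aclarubicin replicate 1) in the 5 globin regions called in all 4 libraries. Points are libraries, bars are the means of the log2 values, and the x axis gives the distance in kb from HS5 (beta) or from the 232 kb region (alpha). The drugs overlap at the beta-globin region and are apart at the 4 alpha-globin regions.

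Lower fragment numbers under daunorubicin were common over the genome, so the alpha-globin values were read against all 4122 regions called in every library. The median log2 difference over these was -0.70, a ratio of 0.615, and in 71.6% of them both daunorubicin libraries lay below both aclarubicin libraries. This held for 4 of the 5 globin regions, all 4 at the alpha-globin locus, while 0 of the 5 had both daunorubicin libraries above, as 7.13% of all shared regions did. Relative to the median, the 147, 157, 232 and 538 kb regions were lower by a log2 of -1.08, -0.58, -0.76 and -0.87, at percentiles 3.13, 15.8, 9.19 and 6.62 of the differences. The 5498 kb region was 0.72 above the median, at percentile 86.0, although its own difference was near 0 and changed sign with the scaling.

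Part of this order went with the level under aclarubicin. Regions with many fragments under aclarubicin had lower ratios, from a median log2 difference of 0.15 in the lowest decile to -1.18 in the highest. Both axes of that relation share the aclarubicin values, and regions had to be called in every library to enter it. The 147, 157 and 232 kb regions belonged to the highest decile and differed from its median by -0.60, -0.10 and -0.29. The 538 kb region, in the ninth decile, differed by -0.45, and the 5498 kb region, in the lowest, by -0.13. The difference of the 157 kb region from its decile was smaller than its replicate SD of 0.22.

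**Figure D4:**
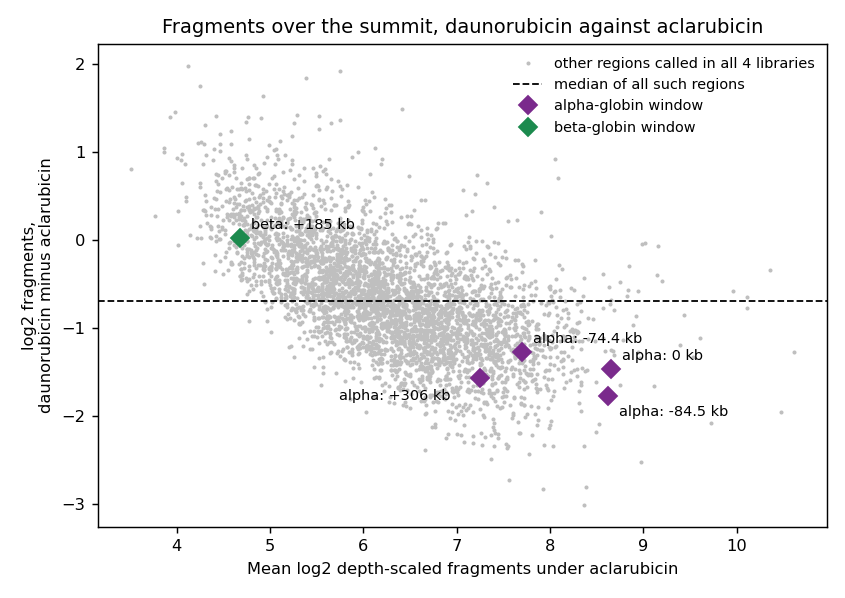
Each grey point is a region called in all 4 libraries. The x axis is the mean log2 number of depth-scaled fragments under aclarubicin, and the y axis is the log2 difference between daunorubicin and aclarubicin. Diamonds are globin regions, named by their distance from HS5 or from the 232 kb region. The 4 alpha-globin regions lie below the median of -0.70 (dashed), at high aclarubicin levels, and the beta-globin region lies above it at a low level.

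The background under the same summits was also lower with daunorubicin. Scaled for depth, it was 0.429, 0.538, 0.488 and 0.554 times the aclarubicin level at the 147, 157, 232 and 538 kb regions, where the median over all shared regions was 0.687. At the 5498 kb region it was 1.20 times as high. The deposited fold divides the fragments by this background. Whether the background is independent of the fragments of the peak itself cannot be told, since no control library is given in the sources. With the background subtracted from the fragments, the log2 differences of the 147, 157, 232 and 538 kb regions were -1.82, -1.32, -1.49 and -1.66, each at least as large as without subtraction. That direction was fixed beforehand, since the background ratio lay above the fragment ratio at each region, so it is no separate check.

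The weaker alpha-globin regions were called in fewer libraries. One region, chr16:451968-452336, was called in 3, with folds of 5.55 and 4.54 under aclarubicin and 4.73 in daunorubicin replicate 1. Its widths were 369, 321 and 291 bp, and its percentiles were 27.0, 15.7 and 10.4. It carried 64 and 60.5 scaled fragments under aclarubicin and 38.1 in the daunorubicin library that called it.

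Aclarubicin-only calls made up 3 of the globin regions, all at the alpha-globin locus, against 23.8% of all merged regions. The first, chr16:401015-401692, had folds of 4.34 and 5.37 (percentiles 12.2 and 25.4), widths of 678 and 358 bp and summits at 401494 and 401491. The next, chr16:441839-442148, had folds of 4.42 and 3.97 (13.1 and 9) and widths of 302 and 300 bp, with summits at 441963 and 441980. The last, chr16:468964-469272, had folds of 3.86 and 5.13 (7.24 and 22.4), widths of 275 and 295 bp and summits at 469090 and 469155. None of these 6 peaks passed percentile 25.4 of its list by fold. By −log10 p they ranked higher, at percentiles 38 and 55.9 (401 kb), 35.7 and 27.1 (442 kb) and 18.4 and 43.2 (469 kb), so 1 of the 6 lay above the middle of its list. Their fragments numbered 39 to 72 over backgrounds of 9.36 to 12.6, more fragments than at any beta-globin peak. With a fold of at least 5, or in lists of equal length, 0 regions of this class were left. Without aclarubicin replicate 1 the class held 9 regions and without aclarubicin replicate 2 it held 5, since 1 library then defines it. In the same way the daunorubicin-only class grew from 1 to 4 or 3 regions without daunorubicin replicate 1 or 2.

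A region at chr16:212257-212746 was called in 1 library of each drug, as 2.73% of all merged regions were. Its peaks, in aclarubicin replicate 2 and daunorubicin replicate 1, had folds of 2.90 and 3.82 (percentiles 1.34 and 2.50) and widths of 317 and 298 bp. Their summits, at 212351 and 212571, lay farther apart than in any globin region called in all libraries. With a reciprocal overlap of 50%, or with summits within 100 bp, these peaks were not merged. The globin regions then numbered 25 in place of 24.

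The other 13 globin regions, 11 of them at the alpha-globin locus, were called in a single library, against 28.7% of all merged regions. Their percentiles ran from 0.909 to 44.6 with a median of 8.66. Over all such regions of the series the medians were 16.7 and 15.1 in the aclarubicin lists and 14.9 and 26.3 in the daunorubicin lists. Aclarubicin replicate 2 alone gave 6 of them, aclarubicin replicate 1 gave 2, and the daunorubicin replicates gave 2 and 3.

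The 6 of aclarubicin replicate 2 were spread over the window. The one nearest the chromosome end, chr16:60922-61384, was 463 bp wide with a fold of 6.99 (percentile 44.6) and had the lowest background of the alpha-globin peaks, 1.86 fragments. At chr16:170811-171154 the peak was 344 bp wide (fold 4.46, percentile 14.6), and at chr16:187282-187551 it was 270 bp wide (3.37, 3.65). These lie between the 157 and 232 kb regions. Beyond the 232 kb region came chr16:321831-322249, 419 bp (4.84, 19.2), chr16:422701-422954, 254 bp (2.81, 1.04) and chr16:431027-431283, 257 bp (3.69, 6.30). Apart from the first, none of them passed percentile 19.2 of the list by fold. By −log10 p the percentiles of all 6, in the order given, were 19.2, 41.5, 11.4, 35.2, 2.81 and 12.1.

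Aclarubicin replicate 1 alone had a peak of 271 bp at chr16:220492-220762 (fold 3.32, percentile 2.82) and one of 251 bp at chr16:571529-571779 (4.01, 8.66). Daunorubicin replicate 1 alone had peaks of 258 bp at chr16:230239-230496 (4.90, 12.5) and of 242 bp at chr16:475106-475347 (3.28, 0.909). The former stood next to the 232 kb region and had 59 fragments over a background of 11.2. Daunorubicin replicate 2 alone had a peak of 250 bp at chr16:337378-337627 (4.33, 3.59), besides its pair at the beta-globin locus. All 5 alpha-globin peaks of these 3 libraries lay in the lowest 12.5% of their lists by fold. By −log10 p their percentiles, in the order given, were 7.74, 30.8, 55.8, 0.501 and 4.31. The peak next to the 232 kb region thus lay above the middle of its list by that rank.

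Counted together, 5 of the 24 globin regions were called in all 4 libraries, where 29.5% of all merged regions were. One was called in 3 libraries, where 12.1% were. Aclarubicin-only regions were found at the alpha-globin locus alone and the daunorubicin-only region at the beta-globin locus. With 3 and 1 such regions, the difference between the loci was not tested.

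The globin peaks ranked in the lower part of most lists. Their median percentile of fold was 27.0 and 20.8 in the aclarubicin lists and 34.7 and 54.6 in the daunorubicin lists, a difference of -20.7 points with SDs of 4.4 and 14.0 (n = 2 each). It was -10.8 points without daunorubicin replicate 2. Ranked by −log10 p in place of fold, the medians were 38 and 42.3 under aclarubicin against 48.7 and 41.2, a difference of -4.78 points with the drugs overlapping. In lists of equal length it turned to 72.1 and 71.0 under aclarubicin against 34.7 and 57.0 under daunorubicin, where the alpha-globin window kept 5 peaks of each aclarubicin list. Percentiles of lists of different length cannot show whether binding changed.

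Peaks were narrower under daunorubicin at 3 of the 4 alpha-globin regions called in all libraries. At the 147 kb region they were 582 and 615 bp wide under aclarubicin and 490 and 491 bp under daunorubicin. The 157 kb region had 544 and 540 bp against 368 and 442 bp, and the 538 kb region 426 and 423 bp against 281 and 321 bp. At the 232 kb region the drugs overlapped, with 476 and 644 bp against 503 and 479 bp. So 3 of the 5 globin regions had both daunorubicin widths below both aclarubicin widths, where 67.6% of all shared regions did. Over the 5 regions the mean width was 498 ± 50.2 bp under aclarubicin and 436 ± 68.7 bp under daunorubicin (SD, n = 2 each), a difference within the spread of the replicates. The difference, aclarubicin minus daunorubicin, was 62.5 bp. It was 98 bp without aclarubicin replicate 1 and 27 bp without aclarubicin replicate 2, and 13.9 and 102 bp without daunorubicin replicates 1 and 2.

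Taken over all 5 regions, summits differed between the drugs about as much as between replicates, but not at each region. Mean summits under daunorubicin minus those under aclarubicin differed by 9.50 bp at the 5498 kb region, and by -19.0, 5.00, -9.50 and -22.0 bp at the 147, 157, 232 and 538 kb regions. The 4 libraries spanned 18 bp at the 232 kb region and 35 to 44 bp at the others. At the 147 and 232 kb regions both daunorubicin summits lay to the left of both aclarubicin summits. At the 5498, 157 and 538 kb regions the drugs were not apart. The shift at the 232 kb region was larger than its distances between replicates, 9 bp under aclarubicin and 8 bp under daunorubicin. Over the 5 regions the median distance between summits of different drugs was 15.0 bp (20 pairs), and that between replicates was 17.0 bp (10 pairs). At the 4 alpha-globin regions alone the medians were 15 and 11.5 bp, and over all shared regions 16 and 15 bp. The largest distance was 44 bp between drugs and 42 bp between replicates.

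At the edges of the windows, the outermost beta-globin regions inside were the 5145 and 5498 kb regions. The last region before them, chr11:4658051-4658525, was called in both aclarubicin lists only (folds 7.89 and 8.33). The first after them was chr11:6291200-6291708, called in all 4 libraries (aclarubicin folds 15.0 and 13.0, daunorubicin folds 9.44 and 7.86). At the alpha-globin locus the outermost regions inside were those at 61 and 572 kb, each called in 1 library. The first beyond, chr16:629088-629431, was called in both aclarubicin lists only (folds 8.19 and 7.23), and no region lay before the window.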

How the data were processed

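The authors deposited 1 narrowPeak list per library, not pooled. Bowtie2, Picard and bedtools and the builds GRCh37 and hg19 are named in the submitters' processing notes, without roles. The peak caller, its threshold and any control library are not given in the sources used here. The deposited fold is a ratio over background, beside a −log10 p, a −log10 q and a score, 10 times the −log10 q without its decimals; percentiles are of the fold within a list. Coordinates are 1-based. Overlap meant at least 1 bp.

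Fragments k and background λ were solved from fold = (k + 1)/(λ + 1) and p as the Poisson probability of more than k, an assumption about the caller; the solver was tested on simulated data. Depth was the lowest λ over the shortest width. Sharing no stated batch, same-numbered replicates were not paired. Regions called in all libraries, in 1 drug, or in 3 libraries are described one by one, the rest by position and rank. The labels call the replicates biological without naming separate cultures, so p-values refer to these libraries alone. An exact permutation p of 0.33 marks a full separation of 2 libraries from 2, whatever the replicate SD. The members, lists and tests were chosen with earlier results of these data known. No genome of the files' build was used, so motifs and sequences were not analysed here. Alternatives were thresholds, list length, overlap, window edges, ranking, depth scaling, a block for the replicate number, and fits lacking 1 library. Python 3.11.15, numpy 2.4.6, pandas 2.3.3, scipy 1.17.1 and matplotlib 3.10.9 were used.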

Additional observations from a re-analysis of the deposited data

How the results depend on the processing

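With lists of equal length the difference in peak number, aclarubicin minus daunorubicin, went from 6 to -1 at the alpha-globin locus. There the drugs overlapped, with 5 and 5 peaks against 8 and 4, so -1 does not stand for a difference the other way. The difference reversed from 4 to -3 over both windows, and that in median percentile from -20.7 to 25.7 points. Daunorubicin replicate 1 had the shortest list, which was left whole while the longer lists lost their weakest peaks by −log10 p. With a fold of at least 5 the difference in peak number was 0 over both windows and 2 at the alpha-globin locus. Aclarubicin-only regions, 3 in all, numbered 0 with a fold of at least 5 and with equal lists, 5 with windows 50 kb wider, and 3 to 9 with a replicate left out; daunorubicin-only regions then numbered 1 to 4, since 1 library can define the class. Regions called in any library fell from 24 to 15 with a −log10 q of at least 10, 12 with a fold of at least 5 and 12 with equal lists. The log2 difference of the 5498 kb region was -0.16 without depth scaling, -0.0012 after subtracting the background, -0.13 against its decile (chosen after seeing the data), 0.72 with scaling by the median of shared regions, and -0.33 to 0.38 with a replicate left out. With equal lists, 4 in place of 5 regions were called in every library. The alpha-globin median, -1.52, kept its sign in every alternative run, from -1.70 to -0.37. The replicate block left the differences at -2, 6 and 4 peaks, by construction, with a smallest sign-flip p of 0.5. Over all shared regions the replicate differences of the drugs correlated at -0.08. That value cannot tell whether same-numbered replicates shared a batch, since a shift common to all regions would not show in it.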
